A study of Mus musculus with 4 samples.

Results

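The TNF superfamily and the NF-κB pathway were examined in eosinophils sorted from the pleural cavity and from the bone marrow of mice injected with tumor cells. Members were chosen by name from the authors' list of differentially expressed genes, as every gene whose symbol begins with Tnf, Nfkb, Ikbk, Tnip, Ripk or Traf and a digit, or is Rel, Rela, Relb, Bcl3, Tank or Tradd. This gave 29 of the 5807 listed genes. They comprised 5 ligands, 4 receptors, 3 adaptors, 3 kinases, 6 inhibitors or IκB proteins, the 5 NF-κB subunits, and 3 genes that match by name alone. In the GENCODE annotation 75 protein-coding genes fit the name pattern, and the 46 that the table does not list, among them Tnfrsf1a, Ripk1, Traf2, Traf6 and Ikbkg, have no value here and no direction.

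Ligands of the TNF superfamily are trimers, mostly anchored in the membrane, that bind trimeric receptors on neighboring cells. The receptors recruit TRAF adaptors and, where they carry a death domain, TRADD and RIP kinases. These signals reach the IκB kinase complex, which marks the inhibitor IκBα for destruction and so frees dimers of RELA, c-REL and p50 (from Nfkb1) to enter the nucleus. A slower branch, used by receptors such as CD40 and the lymphotoxin β receptor, depends on the kinase NIK (Map3k14), which TRAF3 holds at a low level, and yields dimers of RELB and p52 (from Nfkb2). NF-κB then switches on its own inhibitors, Nfkbia and Tnfaip3, which closes the loop. In eosinophils the pathway is known for prolonging survival and for driving cytokine and chemokine genes.

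Both groups came from wild-type (WT) mice that had received LLC cells, from a Lewis lung carcinoma of the mouse, in the pleural cavity. The mice were 6 to 8 weeks old, and the pleural lavage fluid was that of day 2. The groups are bone marrow eosinophils (BM in the labels) and pleural cavity eosinophils from lavage fluid (MPE in the labels), with 2 libraries each. The labels do not say whether a library is 1 mouse or a pool. The gates differed, since bone marrow cells were enriched by F4/80 and sorted as SiglecF+ cells of high side scatter, while CD11c+ and Gr1-high cells were gated out in the pleural cavity only. In one place the study calls the bone marrow cells naïve, whereas the labels and the methods place them in LLC-injected mice.

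The deposited table gives for each gene the authors' mean read count in each tissue and no value per library, so the spread between the 2 libraries is unknown and no test between the tissues was made. Summed over the listed genes, the mean reads came to 15947438 for pleural cavity cells and 11762543 for bone marrow cells, which is not a library total. Reads of a gene are therefore given as reads per 1000000 listed reads (scaled reads), and a gene is called higher or lower in pleural cavity eosinophils when the scaled reads differ at least 2-fold. Intervals after a fold are exact 95% Clopper-Pearson intervals of counting error on the mean reads alone, without variation between mice. All listed genes are ones the authors called different. The study states a threshold of more than 2-fold for them, and far more lower than higher genes. On the listed total, 1942 of the 5807 lay within 2-fold, and 2468 were higher and 3339 lower at any fold. Folds and directions given here thus need not match those of the study, and the source of the difference was not tested. Among the 1524 genes with 1000 mean reads or more in each tissue no log2 ratio lay between -0.47 and 0.18. This empty band was centered at -0.14. Other scalings were tried beside the listed total, namely unscaled reads, the listed total without the 50 most abundant genes, and a scaling that sets the median ratio of those 1524 genes to 0 (the median scaling).

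Sorted cells were checked against marker lists. Siglecf, the surface lectin used in the sort, had 604 scaled reads in bone marrow and 1340 in pleural cavity eosinophils, and the eotaxin receptor gene Ccr3 had 1460 and 4236. All 15 markers of neutrophils and granulocyte precursors were listed, each lower in pleural cavity eosinophils, and their summed share of listed reads was 11.7% in bone marrow and 0.232% in pleural cavity eosinophils. Of the eosinophil list 10 of 12 were listed, 3 higher and 7 lower at any fold, with 9.57% of listed reads in bone marrow and 0.812% in pleural cavity eosinophils. The 3 higher ones were Siglecf, Ccr3 and Gata1. The 7 lower ones ranged from Alox15, 3.59-fold lower, to the granule gene Epx, 552-fold lower. Of 16 macrophage and monocyte markers 9 were listed, 4 higher and 5 lower, with 1.04% and 0.536%. Csf1r, among the 4 higher, had 337.8 and 1293 scaled reads, and Lyz2, among the 5 lower, had 7441 and 3160. The lists for basophils and mast cells, dendritic cells, lymphocytes and NK cells, erythroid cells, and epithelial, mesothelial and tumor cells each took at most 0.0912% of the listed reads in either tissue. RNA per cell and the share of another cell type cannot be told apart in such bulk libraries, and the part of these markers in the results below was not tested.

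Of the 29 members, Tnfsf13b, Tnfrsf23, Tnfsf18, Ikbke and Tnf had the lowest ratios in pleural cavity eosinophils, and Bcl3, Relb and Nfkbia had the highest. At the 2-fold threshold 5 of the 29 members were higher, namely Bcl3, Relb, Nfkbia, Tnfrsf12a and Nfkb2, a share of 17.2% against 16.0% of all listed genes and thus close to it. The 7 lower members, 24.1% against 50.5% of all listed genes, were Tnfsf13b, Tnfrsf23, Tnfsf18, Ikbke, Tnf, Tnfsf13 and Ripk3. At 4-fold 2 members were higher, where 5.29% of listed genes were, and 5 were lower, where 36.7% were. Counted at any fold, 18 members were higher (42.5% of listed genes) and 11 lower (57.5%), although Rela, Traf3ip3 and Tnfaip3 among the 18 turned lower under the median scaling. With unscaled reads the 2-fold counts were 13 higher and 6 lower, and with the median scaling 4 and 11. Unscaled reads brought Tnfsf14, Tnfrsf1b, Traf3, Tradd, Ikbkb, Tnip2, Nfkbid and Nfkb1 past the threshold and took Ripk3 below it. The median scaling made Rel, Tnfrsf26, Tank and Tnfaip8 lower and ended the call of Nfkb2, and the total without the 50 most abundant genes made Rel and Tnfrsf26 lower. Many listed genes have few reads, and most of those are lower. Among genes with at least 100 mean reads in one tissue or the other, 4 of 27 members were higher and 6 were lower, against 19.3% and 38.0% of 4544 genes. The median log2 ratio of those members was 0.47, and that of the 4544 genes 0.33.

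**Figure D1:**
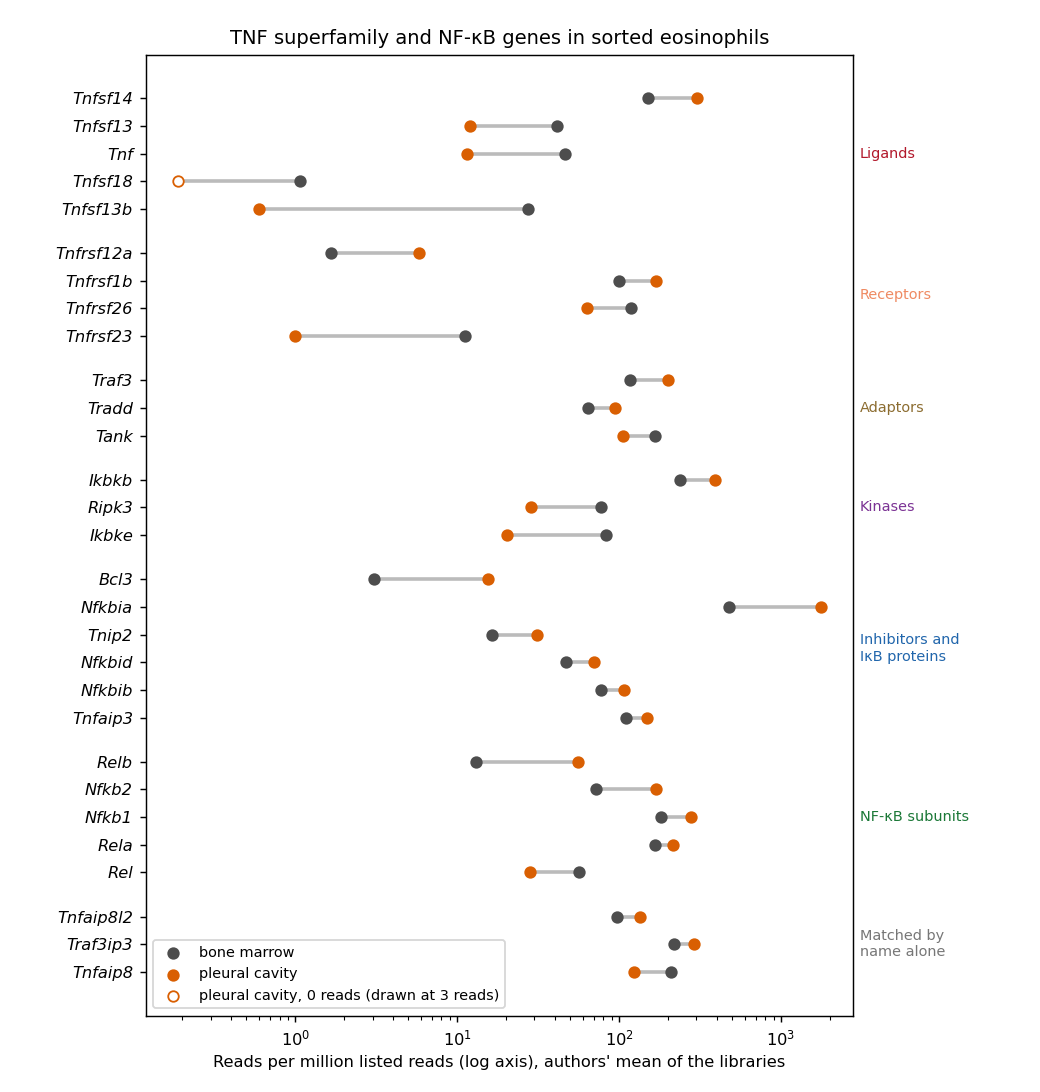
Scaled reads (reads per 1000000 listed reads, log axis) of the 29 genes in bone marrow (gray) and pleural cavity (orange) eosinophils, grouped by role; each point is the authors' mean of the libraries, with no error available. The orange points lie left of the gray ones for 4 of 5 ligands and right of them for all 6 inhibitors and IκB proteins on this scale, of which Tnfaip3 turned under the median scaling. Of all listed genes 42.5% were higher and 57.5% lower at any fold.

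Of the 5 ligands among the members 4 were lower in pleural cavity eosinophils at 2-fold, as were 50.5% of all listed genes. Ltb, a ligand gene of the superfamily outside the name pattern, was 2.13-fold higher (2.01 to 2.27). It had 1463 mean reads in bone marrow and 4233.5 in pleural cavity eosinophils, and its call ended under the median scaling. Tnfsf13b, which encodes the B-cell survival factor BAFF, had 322.5 mean reads in bone marrow and 9.5 in pleural cavity eosinophils, 46.0-fold lower (interval 23.4 to 91.9), the largest decrease among the members. Tnf, the founding cytokine of the family, had 547.5 and 183.5 mean reads, or 46.5 and 11.5 scaled reads, and was 4.05-fold lower (3.41 to 4.80). Tnfsf13, encoding the plasma cell factor APRIL, was 3.44-fold lower (2.90 to 4.09), with 487 mean reads in bone marrow and 191.8 in pleural cavity eosinophils. These 2 mean values of Tnfsf13 are uncertain, because the gene is overlapped on the same strand by the read-through gene Tnfsfm13 and part of its reads were fractional. Tnfsf18, the GITR ligand gene, had 12.5 mean reads in bone marrow and 0 in pleural cavity eosinophils. It was 5.65-fold lower when 3 mean reads are taken as the floor, and its counting interval begins at 3.77-fold.

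The exception among the members was Tnfsf14, which encodes LIGHT, a ligand of the lymphotoxin β receptor and of HVEM. It had 1771.5 mean reads in bone marrow and 4793.5 in pleural cavity eosinophils, 1.996-fold higher (1.89 to 2.11), just outside the threshold. In bone marrow eosinophils there were 3.24 reads of Tnfsf14 for each read of Tnf, and 26.1 in pleural cavity eosinophils. This quotient is formed within each tissue, so no scaling between the tissues enters it. Set per kilobase of the longest transcript, shares were taken over the 4 member ligands present in both tissues, without Ltb. Tnfsf14 made up 56.9% of their reads in bone marrow and 91.5% in pleural cavity eosinophils. Tnf went from 19.8% to 3.95% and Tnfsf13b from 4.01% to 0.0702%. With the median transcript length the share of Tnfsf13b in bone marrow was larger, 11.0%, against 0.211% in pleural cavity eosinophils. Together the 5 ligand genes had 267 scaled reads in bone marrow and 324.7 in pleural cavity eosinophils, a sum that Tnfsf14 carries.

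The 4 receptors were split. Tnfrsf1b, encoding TNF receptor 2, had 1182 mean reads in bone marrow and 2696.5 in pleural cavity eosinophils, 1.68-fold higher (1.57 to 1.80). Tnfrsf12a, the gene of the TWEAK receptor Fn14, was 3.52-fold higher (2.099 to 5.87) on few reads, 19.5 and 93. Tnfrsf23, which encodes a mouse decoy receptor for TRAIL, had 132 mean reads in bone marrow and 16 in pleural cavity eosinophils and was 11.2-fold lower (6.64 to 20.1), with fractional reads. Tnfrsf26 lies 37.1 kb from Tnfrsf23 on chromosome 7 and went the same way at a higher level, from 1389 to 1012 mean reads, 1.86-fold lower (1.71 to 2.02). Among these 4 members the receptors with the most reads in each direction, Tnfrsf1b and Tnfrsf26, thus stayed within 2-fold, and the called ones had at most 11.2 scaled reads. Scaled by the total without the 50 most abundant genes, Tnfrsf26 passed the threshold at a log2 ratio of -1.10.

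None of the adaptors was called on the listed total, though each passed 2-fold under another scaling, Traf3 (log2 ratio 1.22) and, narrowly, Tradd with unscaled reads and Tank under the median scaling at -1.10. Traf3, the adaptor that restrains NIK, had 1372 mean reads in bone marrow and 3200.5 in pleural cavity eosinophils, 1.72-fold higher (1.61 to 1.83), with fractional reads. Tradd, which links death domain receptors to RIP kinases, was 1.48-fold higher (1.36 to 1.62). Tank, encoding a TRAF-binding scaffold of the kinases TBK1 and IKKε, was 1.58-fold lower (1.48 to 1.68), with 1965 and 1690.5 mean reads.

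The 3 kinases pointed in different directions. Ikbkb, the catalytic IKKβ of the main pathway, had 2800.5 mean reads in bone marrow and 6253.5 in pleural cavity eosinophils, 1.65-fold higher (1.58 to 1.72). Its relative Ikbke, encoding IKKε, which acts with TBK1 upstream of interferon genes, was 4.08-fold lower (3.59 to 4.64), with 972.5 and 323 mean reads. Reads of Ikbkb per read of Ikbke went from 2.88 to 19.4. Ripk3, the kinase of necroptosis, had 914.5 and 458.5 mean reads and was 2.70-fold lower (2.42 to 3.03). Without scaling Ripk3 narrowly missed the threshold.

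All 6 inhibitors and IκB proteins were higher in pleural cavity eosinophils at any fold, as were 42.5% of all listed genes. Their log2 ratios ran from 0.42 to 2.34, and 2 of them were higher at 2-fold, as were 16.0% of listed genes. Among listed genes with at least 100 mean reads in one tissue or the other, the median log2 ratio was 0.33. Under the median scaling Tnfaip3 turned to -0.02, and Nfkbib and Nfkbid lay near 0, at 0.03 and 0.13. Nfkbia, which encodes IκBα, had 5609 mean reads in bone marrow and 27996.5 in pleural cavity eosinophils, 3.68-fold higher (3.58 to 3.79). It alone held 15.9% of all member reads in bone marrow and 36.4% in pleural cavity eosinophils. Bcl3, a nuclear IκB protein that binds p50 and p52, had the largest increase of the members at 5.05-fold (3.54 to 7.36), from 36 to 246.5 mean reads. Tnip2, encoding the A20-binding protein ABIN-2, was 1.88-fold higher (1.59 to 2.23). Nfkbid, another nuclear IκB protein, was 1.49-fold higher (1.34 to 1.65), and Nfkbib, encoding IκBβ, 1.39-fold higher (1.28 to 1.51), although Nfkbib overlaps Sirt2 and Ccer2 on the other strand. Tnfaip3, encoding the ubiquitin-editing enzyme A20, was 1.34-fold higher (1.25 to 1.44), with 1300 and 2364.5 mean reads, and has the lowest ratio of the 6. Within the IκB proteins, Nfkbia made up 82.9% of reads per kilobase in bone marrow and 92.1% in pleural cavity eosinophils.

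**Figure D2:**
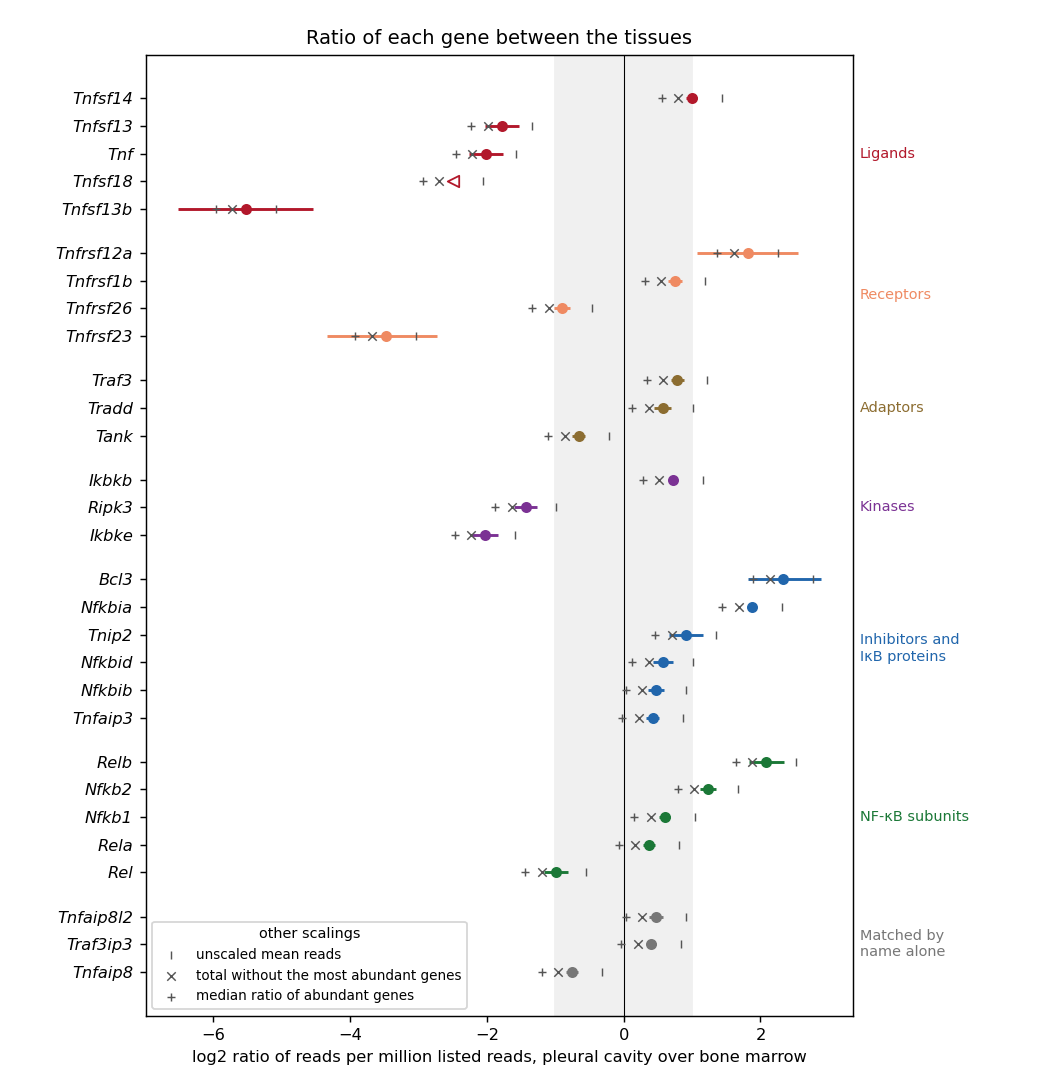
Log2 ratio of scaled reads, pleural cavity over bone marrow, for each gene. Points are the ratio of the authors' means and lines the 95% counting interval. The open triangle is the ratio at the floor of 3 reads for a gene with 0 reads. Gray marks are the ratio under 3 other scalings, and the gray band holds ratios under 2-fold. All 6 inhibitors and IκB proteins lie right of 0 except Tnfaip3 under the median scaling, where Nfkbib and Nfkbid lie near 0. Tnfsf13b lies farthest left.

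All 5 NF-κB subunit genes were listed, and the make-up of their reads shifted toward Relb and Nfkb2, while Rela and Nfkb1 kept the largest shares. These are RNA reads, and neither the proteins nor their dimers were measured. Relb had 154 mean reads in bone marrow and 885.5 in pleural cavity eosinophils, 4.24-fold higher (3.57 to 5.07). Nfkb2, its partner, was 2.35-fold higher (2.18 to 2.54), with 849.1 and 2707.8 mean reads, a call that ended under the median scaling at a log2 ratio of 0.79; its reads were fractional and it overlaps Psd on the other strand. Nfkb1 was 1.51-fold higher (1.44 to 1.59), from 2147 to 4406 mean reads. Rela was 1.29-fold higher (1.22 to 1.37), from 1953 to 3421.5 mean reads, and its log2 ratio of 0.37 became -0.07 under the median scaling. Rel, encoding c-REL, was the one subunit lower on the listed total, from 662.5 to 450.5 mean reads, 1.994-fold (1.77 to 2.25) and just outside the threshold. It passed under the median scaling at a log2 ratio of -1.44 and with the total without the 50 most abundant genes at -1.20.

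Shares within the 5 subunits do not depend on the scaling between the tissues. Per kilobase, Relb went from 2.95% of the subunit reads in bone marrow to 8.06% in pleural cavity eosinophils and Nfkb2 from 13.9% to 21.0%. Rel went from 5.57% to 1.80% and Rela from 45.1% to 37.5%, while Nfkb1 stayed near its level, at 32.5% and 31.6%. With the median transcript length in place of the longest, Relb went from 1.88% to 5.48%, Nfkb2 from 7.87% to 12.7%, Rel from 2.39% to 0.822% and Rela from 66.9% to 59.3%, and Nfkb1 turned from 20.9% to 21.7%. There were 0.232 reads of Relb for each read of Rel in bone marrow eosinophils and 1.97 in pleural cavity eosinophils. For each read of Rela, reads of Nfkbia numbered 2.87 and 8.18.

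**Figure D3:**
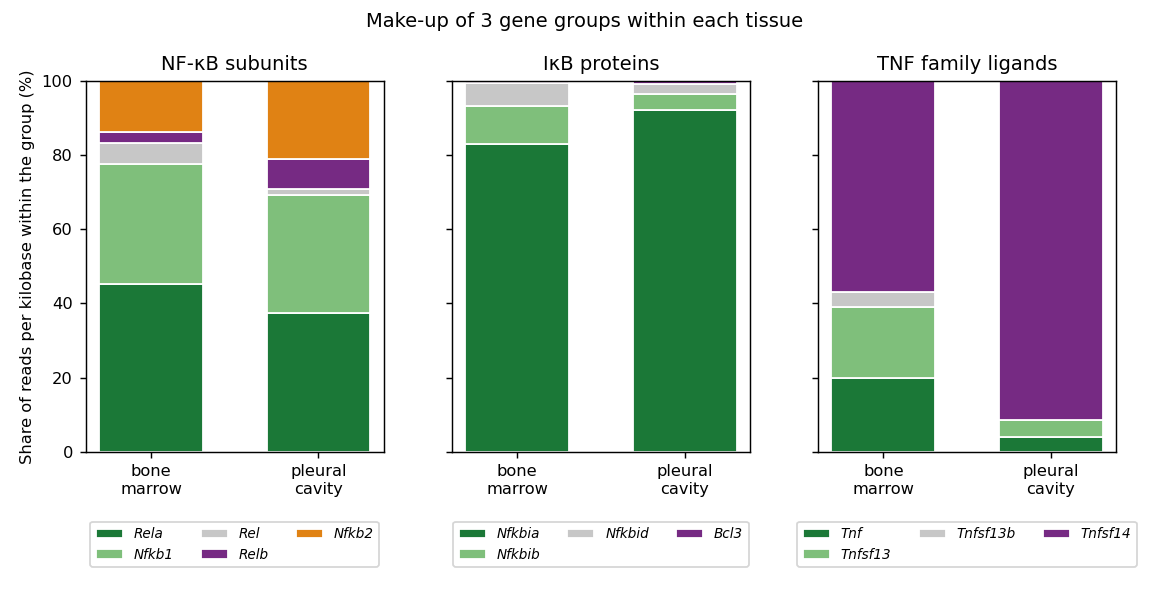
Share of reads per kilobase of longest transcript within the NF-κB subunits, the IκB proteins and the 4 member ligands with reads in both tissues. The ligand gene Ltb, outside the name pattern, is not included. Bars add to 100% in each tissue and carry no error. Nfkb2 and Relb widen among the subunits, and Tnfsf14 reaches 91.5% of the reads of these 4 ligands in pleural cavity eosinophils.

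The promoters of these genes were searched for the NF-κB consensus motif, the 10-base site that the subunit dimers bind, because Nfkbia, Nfkb2, Relb and Bcl3 are classical targets of the factor they regulate. RefSeq promoters (GRCm38.p6, from 250 bases before to 50 after a start) were matched by NCBI gene number for 23 of the 29 members. The motif was found on either strand in 8 of these 23 (34.8%), against 5.99% of 4673 listed genes with a promoter and 5.14% of all 27025 genes with one. Of the members called higher 3 of 4 with a promoter held it, Bcl3, Nfkbia and Nfkb2, and of the 7 called lower 0 did. Relb, also called higher, was not matched to a promoter. Over all listed genes with a promoter, 7.01% of those called higher and 5.60% of those called lower held it. A link between motif and direction was not tested. Among the members within 2-fold 5 of 12 held it, Rel, Tnfaip3, Nfkbid, Traf3 and Tank. Some genes have several starts. Counted by window, 34.4% of 32 member windows and 4.51% of all 32851 windows held the motif. The TATAAA letters were found on the sense strand in 3 member promoters, those of Tnf, Tnfsf18 and Tnfaip3, and in 9.77% of all genes with a promoter. A match is a description of these letters and was not tested as a binding site.

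The promoters are shown for members with at least 100 mean reads in one tissue or the other, for those called higher that have one in the table (for Nfkb2 at its first start), and for the 3 with the largest decreases. Tnfrsf12a, called higher on fewer reads, has a promoter with no match and is not shown. Each runs 5′ to 3′ on the strand of the gene, and capitals mark the motif.
Bcl3, chr7:19822706-19823005, minus strand: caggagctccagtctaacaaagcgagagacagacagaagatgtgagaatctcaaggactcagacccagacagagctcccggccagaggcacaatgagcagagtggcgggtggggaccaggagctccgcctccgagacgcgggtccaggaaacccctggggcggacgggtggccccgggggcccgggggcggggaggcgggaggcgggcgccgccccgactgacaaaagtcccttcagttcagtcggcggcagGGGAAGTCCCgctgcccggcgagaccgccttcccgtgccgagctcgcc
Nfkbia, chr12:55492598-55492897, minus strand: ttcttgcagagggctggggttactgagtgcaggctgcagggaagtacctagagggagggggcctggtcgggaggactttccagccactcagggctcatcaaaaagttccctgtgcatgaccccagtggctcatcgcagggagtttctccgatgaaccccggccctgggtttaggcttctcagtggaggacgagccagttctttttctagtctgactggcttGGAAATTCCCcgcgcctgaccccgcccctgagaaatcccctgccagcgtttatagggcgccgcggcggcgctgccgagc
Nfkb2, chr19:46304487-46304786, plus strand: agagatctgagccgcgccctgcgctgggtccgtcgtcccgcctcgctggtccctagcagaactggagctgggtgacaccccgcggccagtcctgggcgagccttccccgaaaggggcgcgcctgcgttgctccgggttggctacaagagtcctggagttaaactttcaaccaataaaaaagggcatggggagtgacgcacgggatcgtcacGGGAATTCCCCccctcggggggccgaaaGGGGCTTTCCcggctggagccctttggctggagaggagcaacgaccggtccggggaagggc
Ikbke, chr1:131279514-131279813, minus strand: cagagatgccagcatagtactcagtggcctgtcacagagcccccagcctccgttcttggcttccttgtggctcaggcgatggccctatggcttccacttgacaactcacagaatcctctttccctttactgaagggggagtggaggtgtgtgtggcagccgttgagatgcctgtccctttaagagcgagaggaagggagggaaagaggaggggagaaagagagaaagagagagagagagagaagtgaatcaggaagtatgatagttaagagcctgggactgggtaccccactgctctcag
Tnfrsf23, chr7:143685826-143686125, minus strand: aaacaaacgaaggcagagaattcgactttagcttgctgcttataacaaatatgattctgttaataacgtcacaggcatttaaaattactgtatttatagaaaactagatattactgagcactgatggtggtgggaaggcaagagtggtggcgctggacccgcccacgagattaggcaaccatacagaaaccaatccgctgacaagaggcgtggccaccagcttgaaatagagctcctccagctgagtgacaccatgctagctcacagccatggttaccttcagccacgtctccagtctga
Tnfsf13b, chr8:10006217-10006516, plus strand: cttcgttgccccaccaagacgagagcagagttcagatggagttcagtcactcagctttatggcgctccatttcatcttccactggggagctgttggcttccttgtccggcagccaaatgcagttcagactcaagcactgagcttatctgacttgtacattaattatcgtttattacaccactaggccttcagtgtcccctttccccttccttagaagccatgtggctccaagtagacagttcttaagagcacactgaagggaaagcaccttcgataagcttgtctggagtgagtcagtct

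In Nfkbia the site GGAAATTCCC began 29 bases before the start, in Bcl3 the site GGGAAGTCCC began at base 3 after it, and in Nfkb2 a stretch of overlapping matches, GGGAATTCCCC, and the site GGGGCTTTCC began 39 and 11 bases before it. The 3 promoters of lower members held no match in these windows. Elsewhere among the members the site of Rel, GGGAAATCCCC, began 92 bases before its start, that of Traf3, GGGGATTTCC, 10 bases before, and the nearer of those in Tnfaip3, GGAAATCCCC, 12 bases before. Over all members the matches fell at 13 places in the genome.

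**Figure D4:**
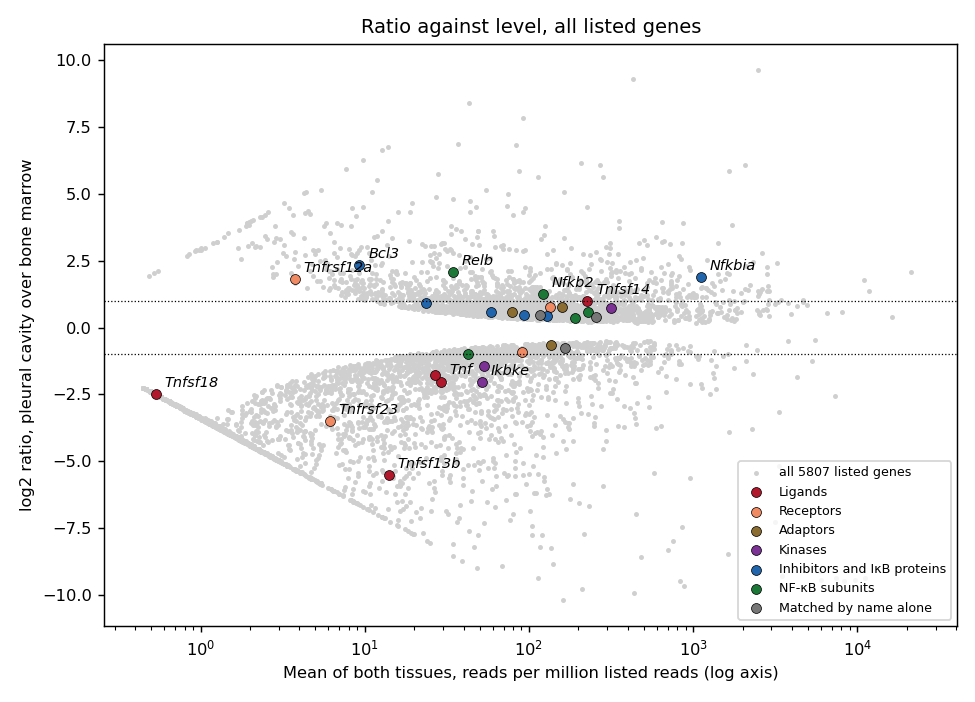
Log2 ratio of scaled reads against the mean level of both tissues (log axis) for all 5807 listed genes (gray) and the 29 members (colored by role); dotted lines mark 2-fold, and reads under 3 were set to 3. Nfkbia is the member with the highest level, Bcl3 and Tnfrsf12a lie among genes with few reads, and among genes at high levels no listed gene lies in the band around 0.

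Ordered by scaled reads per kilobase of the longest transcript, Nfkbia came first in both tissues, with 302 in bone marrow and 1113 in pleural cavity eosinophils. Tnfsf14 with 163, Tnfaip8l2 with 121, Traf3ip3 with 86.1 and Ikbkb with 80.9 followed in pleural cavity eosinophils. In bone marrow eosinophils the next were Tnfaip8l2 with 86.9, Tnfsf14 with 81.5, Traf3ip3 with 65.0 and Tank with 61.9, ahead of Rela with 61.1. With no spread between libraries, neighbors in this order cannot be told apart. Tnfsf18 came last in both tissues.

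The remaining 3 members share a name with the family and not its signaling role. Tnfaip8 and Tnfaip8l2 encode lipid-binding proteins of the TIPE family, and went apart, with Tnfaip8 1.69-fold lower (1.59 to 1.79) and Tnfaip8l2, a known restraint on immune activation, 1.39-fold higher (1.29 to 1.49). Traf3ip3, whose product binds TRAF3, was 1.32-fold higher (1.26 to 1.39) with fractional reads, and its log2 ratio of 0.41 became -0.04 under the median scaling.

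Other genes of the pathway, from a list of 59, were listed in 26 cases. Of these 8 (30.8%) were higher and 3 (11.5%) lower at 2-fold, with a median log2 ratio of 0.63, against 16.0% and 50.5% of all listed genes. Of the 26, 24 had at least 100 mean reads in one tissue or the other, and 7 of the 24 were higher and 2 lower. Of all listed genes at that minimum 19.3% were higher and 38.0% lower, with a median of 0.33. Cd40, a receptor of the TNF superfamily that feeds the NIK branch, had 5 mean reads in bone marrow and 137.5 in pleural cavity eosinophils, 20.3-fold higher. Relt, another receptor of the superfamily, was 2.66-fold higher and had 8861.5 mean reads in pleural cavity eosinophils. Map3k14, the gene of NIK itself, went from 221.5 to 753.5 mean reads, 2.51-fold higher, and N4bp1, an inhibitor of NF-κB signaling, was 2.41-fold higher. Under the median scaling 2 of the list were higher and 4 lower, and the calls of Relt, Map3k14 and N4bp1 ended while that of Cd40 did not. With unscaled reads 14 were higher and 2 lower. Cd27, a costimulatory receptor of the superfamily, was 8.16-fold lower, with 141.5 and 23.5 mean reads, and Card9, an adaptor for fungal sensing receptors, 2.12-fold lower. Skp1, part of the ligase that marks IκBα, was 1.49-fold lower with fractional reads.

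Of 46 target genes of NF-κB 29 were listed, 15 (51.7%) higher and 7 (24.1%) lower at 2-fold, with a median log2 ratio of 1.05. This list, like that of the other pathway genes, was chosen with earlier results of these data known. All 29 had at least 100 mean reads in one tissue or the other, and of all listed genes at that minimum 19.3% were higher and 38.0% lower, with a median of 0.33. With unscaled reads the counts of target genes were 18 higher and 6 lower, and under the median scaling 11 and 9. Without genes of fractional reads, among them Bcl2a1a, Bcl2a1b and Bcl2a1d, 10 were higher and 7 lower. The highest ratio was that of Saa3, an acute phase gene, with 16.5 mean reads in bone marrow and 13778.5 in pleural cavity eosinophils, 616-fold higher. Bcl2a1b and Bcl2a1d, near-identical copies of a survival gene of the Bcl2 family, were 10.1-fold and 7.52-fold higher, and their fractional reads leave the division between copies uncertain. Csf1, the macrophage growth factor gene, was 6.73-fold higher, from 652 to 5951.5 mean reads. Among the lower ones Lcn2, also on the neutrophil marker list, was 253-fold lower and Vcam1, an adhesion molecule gene, 207-fold lower, from 5049 to 33 mean reads. Vegfa was 38.0-fold lower on 112 and 4 mean reads, and the proliferation factor gene Myc 14.6-fold lower.

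**Figure D5:**
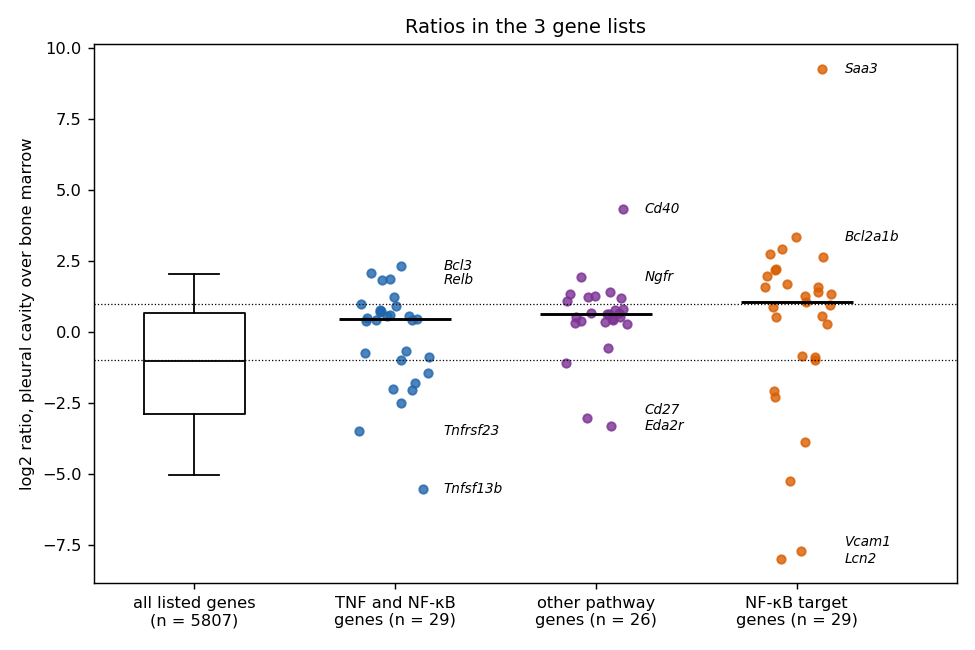
Log2 ratio of scaled reads for all listed genes (box with quartiles and median, whiskers at the 5th and 95th percentiles) and for each gene of the 3 lists (points, with black bars at the medians); dotted lines mark 2-fold. Medians are -1.02 for all listed genes, 0.47 for the members, 0.63 for the other pathway genes and 1.05 for the target genes. Among listed genes with at least 100 mean reads in one tissue or the other, as nearly all genes of the lists have, the median is 0.33.

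Positions on GRCm38 (GENCODE) are given for the members with the largest ratios. Bcl3 lies on chromosome 7 from 19808462 to 19822770 and Relb on the same chromosome from 19606217 to 19629438, both on the minus strand. Nfkbia lies on chromosome 12 from 55489410 to 55492647, Nfkb2 on chromosome 19 from 46304320 to 46312385, Tnf on chromosome 17 from 35199381 to 35202007 and Tnfsf13b on chromosome 8 from 10006467 to 10039072.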

How the data were processed

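Eosinophil mRNA was sequenced from 2 bone marrow and 2 pleural cavity libraries, grouped by their titles. Per the labels and the study's methods, the authors trimmed reads with SOAPnuke, aligned them with HISAT2 2.1.0 to GRCm38 (GENCODE), mapped them to genes with Bowtie2 2.2.5 and estimated expected counts with RSEM 1.2.8. The deposited table gives the mean expected count of each tissue for the listed genes, unscaled for depth. Its 3 columns of the authors' own comparison (log2 ratio, P and Q values) were not used, and 0 columns per sample were left unused. Depth per library is thus unknown, and intervals cover counting error only. Use of strand in counting is not given in the sources used here. Fractional means (neither whole nor ending in 0.5), held by 1499 listed genes and 5 members, show reads divided between similar genes.

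Means were scaled to the listed total, with reads under 3 set to 3 for ratios. All 29 members were named, and in the other lists the 4 genes with the largest ratio in each direction among those with at least 100 mean reads in a tissue, where listed. Ltb was named in addition, as a ligand gene outside the name pattern. Members, lists and thresholds were chosen with earlier results of these data known. Lengths came from GENCODE vM21 (29 of 29 members matched by Ensembl identifier). The interval was tried on simulated counts of known ratio that carry counting error alone. These hold no variation between mice and no fractional reads, so the trial cannot show how well the interval serves the real means. Alternatives changed the scaling, fold, read minimum, fractional reads, members and transcript length. Intervals were computed with scipy 1.17.1 and tables with pandas 2.3.3 and numpy 2.4.6 under Python 3.11.15, and plots were drawn with matplotlib 3.10.9.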

Additional observations from a re-analysis of the deposited data

How the results depend on the processing

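No paired analysis was possible because the mean columns carry no replicate numbers, and for the same reason no library could be left out. Against the scaling to the listed total, unscaled reads shift every log2 ratio by 0.44, the total without the 50 most abundant genes by -0.20 and the median ratio of abundant genes by -0.44. Of the 29 members these changed the call of 9, 2 and 5 and the sign of 0, 0 and 3. With unscaled reads 13 members, 14 other pathway genes and 18 target genes were higher. With the median scaling 11 members were lower and 2 other pathway genes higher. At 4-fold 2 members, 1 other pathway gene and 7 target genes were higher, and at any fold 18 members were higher and 11 lower, with 22 other pathway genes higher. Summed over the members, scaled reads in pleural cavity were 1.61 times those in bone marrow eosinophils, 2.19 times unscaled, 1.41 times without the 50 most abundant genes in the total, 1.22 times without Nfkbia and 1.64 times without members of fractional reads. The other alternatives left these counts within 1.5 times. With median transcript lengths 3 of the first 5 members per kilobase were kept in pleural cavity and 2 of 5 in bone marrow eosinophils, and Nfkbia stayed first. Few reads limit Tnfsf18, Tnfrsf12a, Tnfsf13b, Tnfrsf23 and, with 36 mean reads in bone marrow eosinophils, Bcl3.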

Other observations

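The 2 members with the largest ratios, Bcl3 and Relb, lie 179 kb apart on chromosome 7. They are adjacent among the members only, with 10 protein-coding genes between them. The region from Relb to Bcl3 holds 12 protein-coding genes of the annotation, of which 5 were listed. Of the 3 listed genes between them, named after their values were seen, Bcam, a laminin-binding adhesion molecule gene, had 5 mean reads in bone marrow and 72 in pleural cavity eosinophils, a log2 ratio of 3.41, the membrane protein gene Clptm1 had a log2 ratio of 0.70, and the apolipoprotein gene Apoe had -0.73. Higher ratios thus did not extend to every listed gene of the region.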
